A study of Mus musculus with 9 samples.

Results

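The regions described here are stretches of the mouse genome that were called as rich in 5-hydroxymethylcytosine (5hmC) in bone marrow mononuclear cells carrying MLL-AF9, and that lay more than 50000 bp from every 5hmC region called in control cells. They were chosen by position alone. A row of the MLL-AF9 list on an autosome (chromosomes 1 to 19) was taken when the number of bases between it and the nearest row of the control list was above 50000, and it is called a far region below. This gave 15948 far regions of 166014 autosomal MLL-AF9 regions (9.61%, exact binomial interval 9.47 to 9.75, 95%, counting error only), out of 166852 rows in the MLL-AF9 list in all. The values that chose the far regions are the positions in both lists, so their distance from control regions and their absence from the control list are no results.

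The 5hmC samples were 1 library from MLL-AF9 cells, which received the retrovirus MSCVneo-MLL-AF9 together with MSCVpuro, and 1 library from control cells, which received MSCVneo and MSCVpuro without the fusion. Cells of both groups were mononuclear cells from the bone marrow of B6.SJL (CD45.1) mice, and all of them had received the MSCVpuro virus. The sources give neither the age of the mice, nor how many mice a library represents, nor the time after transduction. The series holds 9 samples, including 3 polyA RNA libraries per group and 1 control input DNA library that was not analysed here. The series' design text speaks of chemical labelling and enrichment of 5hmC, whereas the labels give an antibody against 5-methylcytidine. With 1 library per group no test between MLL-AF9 and control was possible, regions of 1 library are not replicates, and what follows describes these libraries.

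5hmC is made when a TET enzyme oxidises 5-methylcytosine, and it can be a step towards the loss of methylation or persist as a mark of its own. In mammalian cells it is found in the bodies of transcribed genes and around enhancers, including enhancers far from any promoter. MLL-AF9 joins the amino-terminal part of the histone methyltransferase MLL to the carboxy-terminal part of AF9, and the fusion protein drives acute leukaemia in people and in transplanted mice.

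The labels were set beside the authors' deposited table of RNA values (FPKM, 1 pooled value per group). Hoxa9, a homeobox gene that MLL fusions switch on, had 65.9 FPKM in MLL-AF9 cells, against 0.876 FPKM in control cells, in the authors' deposited table. Ptprc, which encodes the leukocyte antigen CD45, had 142 FPKM in MLL-AF9 cells, against 257 FPKM in control cells, in the authors' deposited table. Alb, a hepatocyte gene, was listed at 0 in MLL-AF9 cells and had 0.0139 FPKM in control cells in the authors' deposited table. The other non-blood markers were not at 0 in the authors' deposited table. Col1a1 had 0.248 FPKM in MLL-AF9 cells, against 0.744 FPKM in control cells, and Epcam had 1.10 FPKM, against 0.728 FPKM. The lymphocyte markers Cd79a and Cd3d were at 2.97 and 0.660 FPKM in MLL-AF9 cells, against 210 and 16.7 FPKM in control cells, in the authors' deposited table. The myeloid markers Itgam and Mpo had 227 and 627 FPKM in MLL-AF9 cells, against 399 and 927 FPKM in control cells, in the authors' deposited table. The cell types in the 5hmC libraries were not measured, and any part of them in the far regions was not tested. In bulk samples more cells with a mark and more of the mark per cell cannot be told apart. No genome sequence or annotation in the build of the files, mm9, was used here, so no sequence is printed and no gene is assigned to a region.

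Far regions were sparse for the sequence in which they could lie. The sequence over 50000 bp from a control region came to 1541 Mb, or 64.3% of the 2397 Mb between the outermost regions of the autosomes. It held 10.3 far regions per Mb. The remaining 856 Mb held the other 150066 MLL-AF9 regions, at 175 per Mb. The ratio of far to other density was 0.0590, and the density was lower in the far sequence on 19 of 19 autosomes. The control positions that chose the far regions also split the sequence here. The other regions included 43603 that overlapped a control region. These densities thus describe how closely the MLL-AF9 list follows the control list, and are no separate support for a trait of far regions. Far regions thus made up 9.61% of the autosomal MLL-AF9 regions and 7.80% of the length these covered, or 6.66 Mb.

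The density of MLL-AF9 regions fell without a step across the limit of 50000 bp. It was 253 per Mb in the sequence within 1000 bp of a control region and 53.1 per Mb at 40000 to 50000 bp. Beyond the limit it was 46.9 per Mb at 50000 to 60000 bp, 20.5 per Mb at 100000 to 150000 bp and 8.70 per Mb at 200000 to 300000 bp. At more than 2000000 bp it was 0.949 per Mb, from 133 far regions in 140 Mb. In the windows of 5000 bp on either side of the limit, the far regions and those just excluded had the same medians: 1419 far regions up to 55000 bp away lay at 49.1 per Mb, their widths having a median of 386 bp and their scores a median of 188, and 1599 regions between 45000 and 50000 bp away lay at 51.0 per Mb with the same medians. The far regions closest to the limit lay on chromosome 2, bases 83649947 to 83650346, and on chromosome 8, bases 36793308 to 36793520, both 50004 bp from a control region. Those just excluded lay on chromosome 10, bases 17504841 to 17505084, at 50000 bp, and on chromosome 13, bases 54889774 to 54890206, at 49997 bp. All coordinates are in mm9 and counted from 1. The limit therefore divides a continuous decline.

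**Figure D1:**
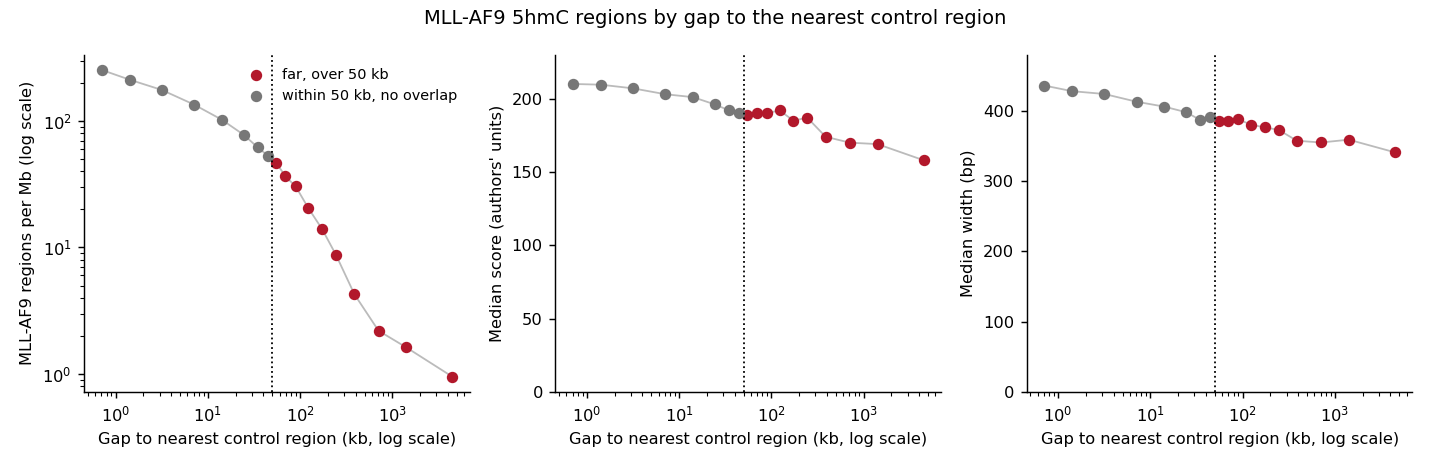
MLL-AF9 regions without a control overlap, by gap to the nearest control region (x axis, kb, log scale, points at the geometric middle of each distance class): regions per Mb of sequence at that distance (left, log scale), median score in the authors' units (middle) and median width in bp (right), with far regions in red, regions within 50 kb in grey and the limit as a dotted line. Density falls from 253 per Mb to 0.949 per Mb with no step at the limit, whereas median score and width change little between 50 and 150 kb and decline beyond that, to 158 and 341 bp in the most distant class.

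Far regions lay at widely differing distances beyond the limit. The gap to the nearest control region had a median of 98490 bp and quartiles of 67092 and 180954 bp, and 8113 far regions (50.9%) lay within 100000 bp. A gap over 200000 bp was seen for 3559 far regions (22.3%) and a gap over 1000000 bp for 528 (3.31%). The 3 with the largest gaps lay together on chromosome 14, at bases 87923406 to 87923894, 87907712 to 87908100 and 87882278 to 87882483, with the nearest control region 7866852, 7851158 and 7825724 bp away. These were narrow and low-scoring regions, with widths of 489, 389 and 206 bp and scores of 93, 157 and 95. Beyond the outermost control region of a chromosome lay 94 far regions.

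Far regions were narrower and had lower scores than the other MLL-AF9 regions. The score is a whole number the authors gave each region, whose meaning is not stated, and it is compared only between regions of the same list. The median width was 379 bp in far regions, 400 bp in regions over 10000 and up to 50000 bp from control, 425 bp in regions up to 10000 bp from control and 575 bp in regions that overlapped a control region by at least 1 bp. The median score was 186 in far regions, and 197, 207 and 262 in these other classes in the same order. The step from far to intermediate regions was small beside the spread within a class: the score spanned 96 to 332 between the 10th and 90th percentiles of far regions, against 96 to 358 for regions over 10000 and up to 50000 bp away. The lower median of both measures in far than in all other MLL-AF9 regions was seen on 19 of 19 autosomes.

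High scores and large widths were rare among far regions but not absent. Of the far regions 645 (4.04%) had a score above 455, which marks the highest decile of the autosomal MLL-AF9 list (9.97% of it). Of regions that overlapped a control region the share was 20.3%. At least 1000 bp wide were 217 far regions (1.36%), against 5.54% of all autosomal MLL-AF9 regions. Read the other way, far regions made up 13.1% of the lowest decile of the list by score (interval 12.5 to 13.6), 10.7% of the fifth decile and 3.90% of the highest decile (interval 3.61 to 4.20), with a lower share in each decile than in the one below it.

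Far regions were also narrower than the pooled other MLL-AF9 regions of like score. Among regions with scores of 191 to 215, far regions had a median width of 387 bp, against 416 bp for the other MLL-AF9 regions. Among those with scores of 456 or more, the medians were 796 bp in far and 892 bp in the other regions, and far regions had the lower median width in each of the 10 score classes. The highest class ran up to a score of 3805, so scores were less alike in it. The other regions included those overlapping control, whose median width in the highest class was 970 bp. Width and score increased together to a like degree in both sets, with a Spearman correlation across regions of 0.71 in far regions and 0.72 in the others. Within the far regions the gap to control had a weak correlation with the score (-0.04) and with the width (-0.07). The most distant far regions had lower medians: the median score was 189 at 50000 to 60000 bp from control, 192 at 100000 to 150000 bp, 174 at 300000 to 500000 bp and 158 beyond 2000000 bp, and the median width at these distances was 386, 381, 358 and 341 bp. These correlations are over regions of 1 library and describe it only.

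**Figure D2:**
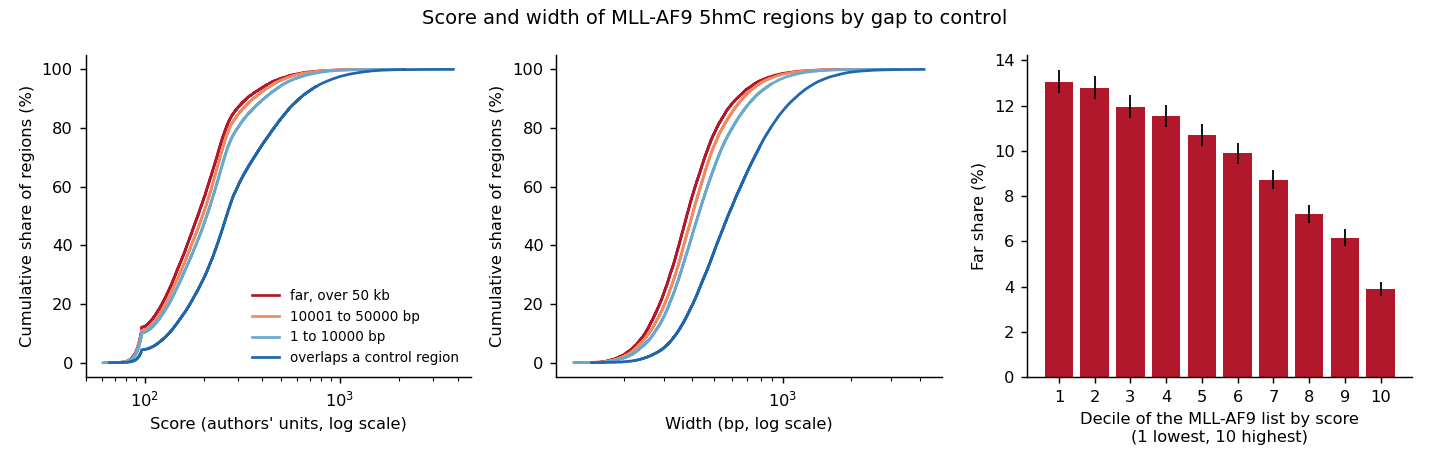
Cumulative share of MLL-AF9 regions by score (left, authors' units, log scale) and width (middle, bp, log scale) for far regions and 3 classes closer to control, and the share of far regions in each decile of the list by score (right, bars, with exact 95% binomial intervals). The far curve lies furthest to the left in both panels, next to the curve for the class ending at 50000 bp, and the far share declines from 13.1% to 3.90% across the deciles.

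Single far regions reached high scores, although the highest of the list, 3805, belonged to a region that overlapped a control region. The top score among far regions, 2134, belonged to a region of 2646 bp on chromosome 4, bases 41444117 to 41446762, which was also the widest. Its nearest control region was 108106 bp away. The next was a region of 2238 bp with a score of 2100 on chromosome 13, bases 56440862 to 56443099, 141966 bp from control. The others of the 5 with the highest scores had scores of 1506 (chromosome 4, bases 127118904 to 127120565), 1367 (chromosome 6, bases 112555434 to 112556943) and 1358 (chromosome 6, bases 126353878 to 126355450). Of these 5, 4 lay inside clusters of 16 to 42 far regions. The exception was the region with a score of 1358, which had no other MLL-AF9 region within 19272 bp and lay 431387 bp from control. The second widest far region, of 2405 bp on chromosome 6 at bases 34106909 to 34109313, had a score of only 709 and belonged to a cluster of 23. On each of the 19 autosomes the far region of highest score belonged to a cluster of at least 2, and these top scores ranged from 692 on chromosome 12 to 2134 on chromosome 4.

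Far regions tended to lie close to each other. A cluster was taken as a run of 2 or more far regions with at most 10000 bp between neighbours. Of the far regions 11620 (72.9%, interval 72.2 to 73.6) lay in 3052 such clusters, and 4328 (27.1%) lay alone. With only as many top-scoring MLL-AF9 regions as control regions, and so fewer regions in all, the share in clusters was 46.2%. The median distance to the nearest other far region was 2998 bp, and 4625 far regions (29.0%) had another one within 1000 bp. With neighbours of any kind counted, 29.2% of far regions had another MLL-AF9 region within 1000 bp. This share was 37.0% for regions over 10000 and up to 50000 bp from control and 54.9% for all autosomal MLL-AF9 regions. Far regions were thus less crowded than the other regions. No MLL-AF9 region of any kind lay within 10000 bp of 25.9% of far regions, against 5.75% of all autosomal MLL-AF9 regions. The share was 11.1% of regions over 10000 and up to 50000 bp from control, 0.719% of regions up to 10000 bp from control and 2.47% of overlapping regions. The median distance to the nearest MLL-AF9 region was 2926 bp in far regions and 1758, 662 and 479 bp in these other classes.

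Most clusters were small, and a few were large. Pairs made up 1384 of the 3052 clusters, and the median cluster had 3 far regions and spanned 7308 bp. Only 143 clusters held 10 or more, and they contained 2175 far regions (13.6%). These had a median span of 37677 bp, of which a median of 16.8% was covered by regions. In these clusters the top score was a median of 2.55 times the cluster's median score, with a range of 1.19 to 9.20. At least 20 far regions were found in 27 clusters, with 742 regions in all.

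Members of larger clusters were wider and scored higher. The median score was 171 for far regions alone, 185 in clusters of 2 to 4, 197 in clusters of 5 to 9, 210 in clusters of 10 to 19 and 213 in clusters of 20 or more. The median width followed the same order, at 348, 376, 406, 423 and 433 bp. Scores in the highest decile were held by 2.17% of the lone regions and by 9.16% of those in clusters of 20 or more, close to the 9.97% over all autosomal MLL-AF9 regions. The gap to control did not follow this order, with medians of 115052 bp for lone regions, 89686 bp in clusters of 5 to 9 and 117479 bp in clusters of 20 or more.

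The cluster with the most members lay on chromosome 9, bases 51850846 to 51963393, and held 66 far regions in 112548 bp. Regions covered 30.6% of it, with a median spacing of 654 bp. Its scores ranged from 73 to 826 with a median of 210, and 9 of the 66 were in the highest decile. The nearest control regions were 810285 bp away on the lower side and 74533 bp on the upper side. The second cluster, on chromosome 4 at bases 127095317 to 127190826, held 42 far regions in 95510 bp, among them the region with a score of 1506. That score was 6.30 times the cluster's median of 239, and 4 of the 42 were in the highest decile. The median width in this cluster was 488 bp, against 379 bp over all far regions. The third, on chromosome 4 at bases 58808488 to 58894859, held 40 far regions in 86372 bp and was weaker, with a median score of 175 and a top score of 592. Its upper end is set by the limit of 50000 bp, since the next MLL-AF9 region, at a distance of 1862 bp, was too close to control to count as far. The first and second were separated from the next MLL-AF9 region by at least 13789 and 11054 bp on either side.

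**Figure D3:**
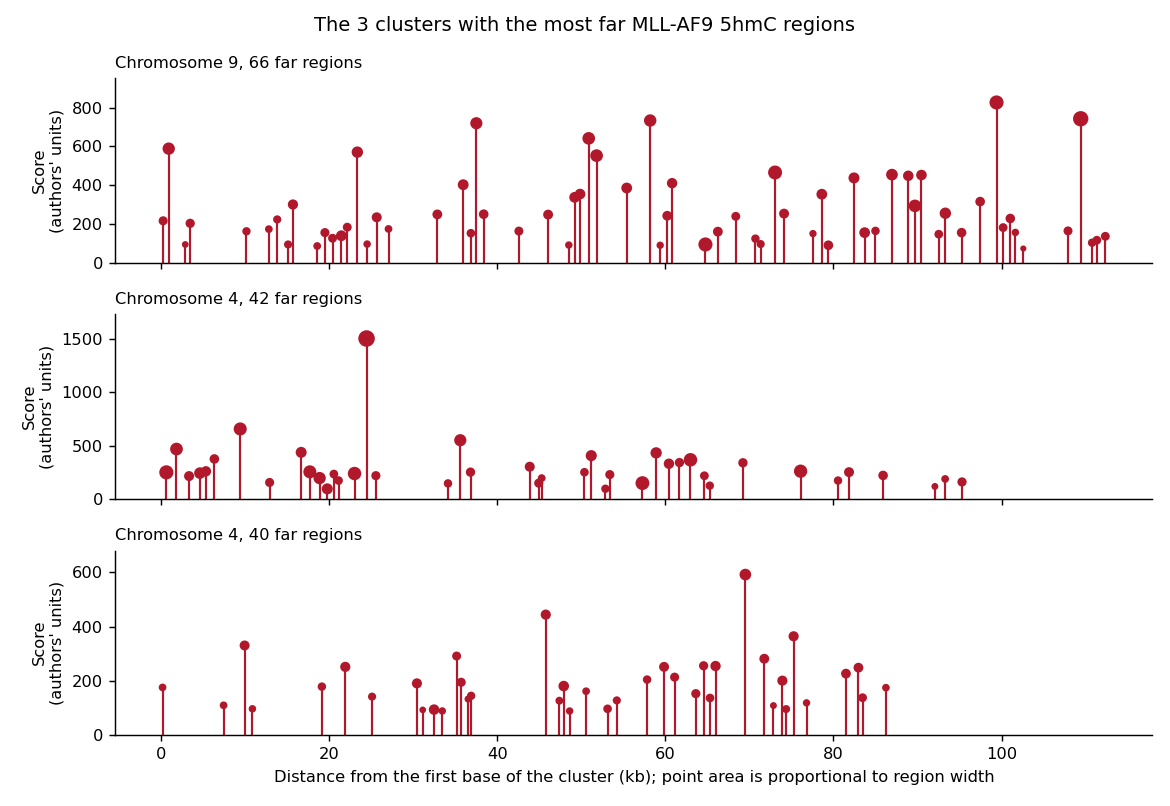
The 3 clusters with the most far regions, each far region drawn at its distance from the cluster's first base (x axis, kb) with its score (y axis, authors' units, separate scale per cluster) and a point whose area follows its width. The chromosome 9 cluster has several high regions along its length, the first chromosome 4 cluster has 1 region at 1506 above the rest, and the second chromosome 4 cluster reaches 592.

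Far regions were spread unevenly over the sequence between control regions. There were 3013 control-free intervals with room for a far region, all of them stretches of more than 100000 bp between 2 control regions, except 18 at a chromosome's end. Of these, 816 (27.1%, interval 25.5 to 28.7) held none, 462 held 1 and 1735 held 2 or more. The 343 intervals with the most far regions (11.4%) held at least 50% of them. These intervals were picked by their own counts. Far sequence was unevenly shared as well: the 216 intervals over 2000000 bp held 791 of its 1541 Mb and 14.9% of far regions. The most, 85, lay in an interval of 0.997 Mb on chromosome 9 from 51040561 to 52037926, the one with the cluster of 66. Intervals of 1.34 Mb on chromosome 2 from 178302845 to 179644751 and of 1.64 Mb on chromosome 9 from 46066030 to 47701355 came next, with 75 and 74.

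Long control-free intervals held far regions at low density. The density of far regions in the sequence over 50000 bp from control was 74.9 per Mb in intervals of up to 120000 bp, 39.2 per Mb in intervals of 200000 to 300000 bp and 3.003 per Mb in intervals over 2000000 bp. The share of intervals without any was 62.1% in the shortest class, in which little room was left, and 12.5% in the longest. Part of the decline was already present at a like distance from control: between 50000 and 60000 bp from a control region, the density was 75.1 per Mb in the shortest intervals, 45.7 per Mb in those of 200000 to 300000 bp and 36.3 per Mb in those of 300000 to 500000 bp. It changed less among the longer intervals, with 35.6, 28.5 and 33.0 per Mb in the classes of up to 1000000, up to 2000000 and over 2000000 bp. The longest interval, 18.4 Mb on chromosome 14 from 80056554 to 98506043, held 45 far regions with a top score of 493. An interval of 12.3 Mb on chromosome 15 from 12835880 to 25157778 held 5. The longest without a far region covered 5.81 Mb on chromosome 17 from 37184669 to 42990122. Assembly gaps and sequence to which short reads map poorly could not be marked in mm9, so their share in such stretches was not tested.

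**Figure D4:**
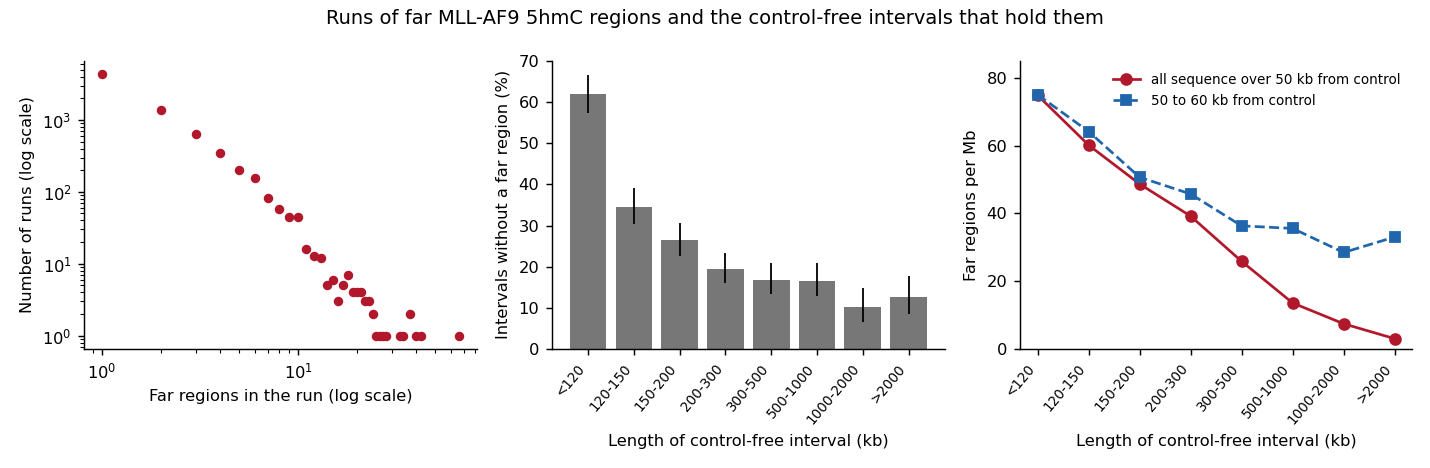
Number of runs of far regions by the number of regions in the run, runs of 1 included (left, both axes log scale), share of control-free intervals without a far region by interval length in kb (middle, with exact 95% binomial intervals), and far regions per Mb by interval length (right) in all far sequence (red) and at 50 to 60 kb from control (blue). Runs of 1 number 4328 and the longest holds 66, and the red density falls with interval length to 3.003 per Mb, whereas the blue one falls to 28.5 per Mb at 1000 to 2000 kb and is 33.0 per Mb above that.

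The far share differed between autosomes by up to 2.15 times. Far regions were 12.9% of the MLL-AF9 regions of chromosome 2 (1679 of 13018, interval 12.3 to 13.5), 12.2% on chromosome 3 and 12.2% on chromosome 1. The lowest shares were 5.99% on chromosome 10 (610 of 10187, interval 5.54 to 6.47) and 6.76% on chromosome 17, and the median autosome had 9.49%. Chromosome 2 contained 10.5% of all far regions, with 13018 of the 166014 autosomal MLL-AF9 regions and 113 of the 1541 Mb of far sequence. These intervals cover counting error only, and clustered regions are not independent of each other.

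The order of autosomes changed when the available sequence was taken into account. Per Mb of far sequence, chromosome 19 had the most far regions, 16.1, although its number, 461, was the lowest of all. It was followed by chromosome 2 with 14.9, chromosome 11 with 14.5 and chromosome 9 with 13.9 per Mb. Chromosome 7 had the fewest, 6.86 per Mb. Density also fell with distance from control within the far sequence, and differences between autosomes in that distance were not taken into account. Autosomes with more control regions per Mb had lower far shares, with a Spearman correlation of -0.73 over 19 autosomes. The rule itself links these measures, since more control regions leave less far sequence, which came to 49.4% of chromosome 19 and 71.2% of chromosome 14. The density of far regions in far sequence was nearly unrelated to the density of the other MLL-AF9 regions in the remaining sequence, with a correlation of 0.12.

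Score, width and clustering of far regions also differed between autosomes. The median score ranged from 175 on chromosome 13 to 198 on chromosome 6 and the median width from 362 to 393 bp on the same chromosomes. The share in clusters ranged from 65.9% on chromosome 10 to 77.6% on chromosome 16. Clusters of 10 or more were found on each autosome, from 3 on chromosome 15 to 13 on chromosomes 5 and 6.

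**Figure D5:**
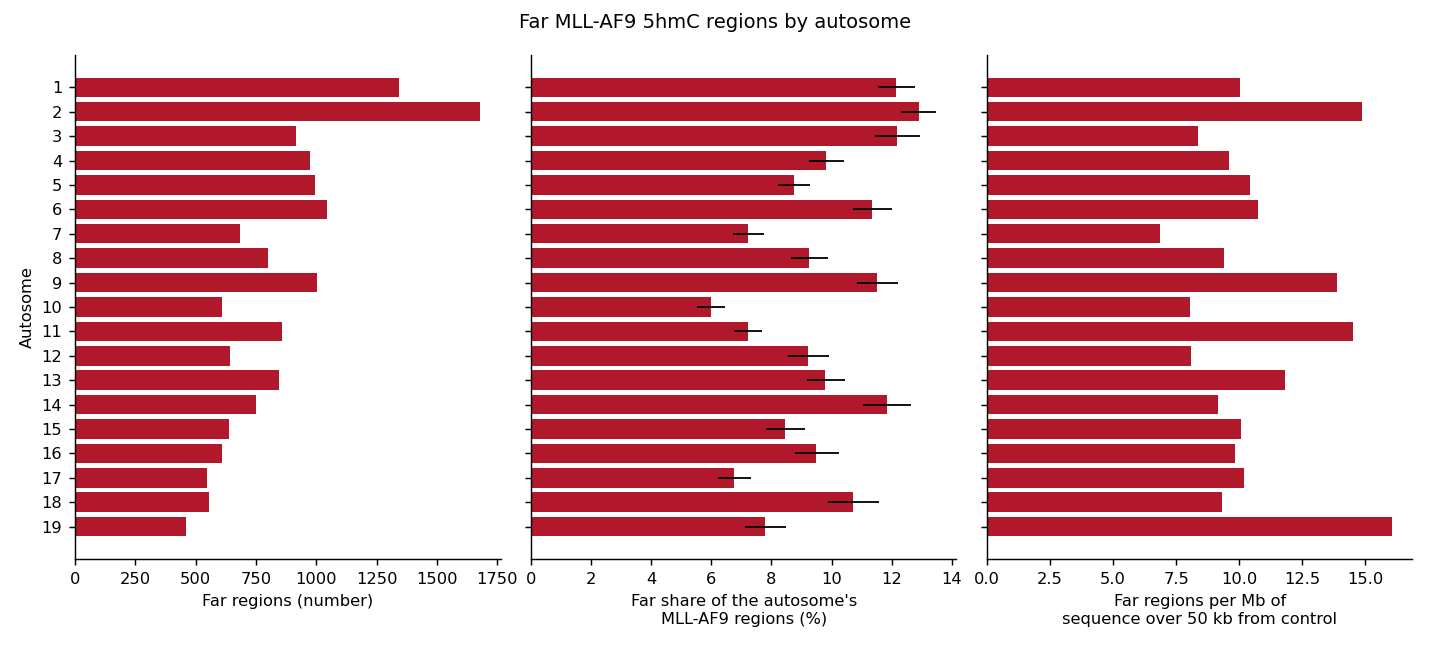
Far regions by autosome (rows, 1 to 19): their number (left), their share of the autosome's MLL-AF9 regions in percent with exact 95% binomial intervals (middle), and their number per Mb of sequence over 50 kb from control (right). Chromosome 2 has the highest number and share, and chromosome 19 has the lowest number and the highest density.

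The number of far regions has to be read beside the unequal length of the lists. The MLL-AF9 list had 166014 autosomal rows and the control list 51145, and reads per library are unknown. In the opposite direction, only 380 of the control regions (0.743%, interval 0.670 to 0.821) lay more than 50000 bp from every MLL-AF9 region. When the 51145 MLL-AF9 regions of highest score were taken, so that both lists had the same length, 2993 of them (5.85%, interval 5.65 to 6.06) were far from control, and 1992 control regions (3.89%, interval 3.73 to 4.07) were far from them. Selecting on score in 1 list only also changes which regions remain, and the effect of depth on either count was not tested.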

How the data were processed

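The submitters' processing notes name the region caller MACS 1.4, the aligners Bowtie 0.17.2 and TopHat 1.4.1, as well as Cufflinks 1.3.0 and CASAVA 1.8.2, with build mm9 and without roles or settings. The deposited 5hmC files list regions of 1 library each, each region with a whole-number score from the authors that no source explains. The RNA values in the deposited table, 1 per group, were read as FPKM from the authors' processing, though the header names no unit, and the p-values and q-values in the authors' deposited table were not used. The marker Spi1 was not matched.

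Gaps were counted from edge to edge on the rows as deposited, and for all 166014 autosomal rows they were the same as those of bedtools 2.31.1. The steps for gaps and clusters were tested on simulated data. Sequence at a given distance was counted per base between the outermost regions of each autosome. Intervals are exact binomial at 95%, for counting error only. Depth is unknown. The members, classes and rules were chosen with earlier results of these data known. Named regions are the 5 far regions of highest score, the 3 widest, the 3 with the largest gaps, the 3 largest clusters and 2 regions on each side of the limit; other intervals and autosomes were named after their values were seen. Alternatives changed the limit, the gap measure, the lists, merging and cluster spacing. Python 3.11.15, numpy 2.4.6, pandas 2.3.3, scipy 1.17.1 and matplotlib 3.10.9 were used.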

Additional observations from a re-analysis of the deposited data

Results flagged for a closer look

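Regions on the sex chromosomes were outside the rule for far regions and are given as values only. On chromosome Y the MLL-AF9 list had 19 regions (0.0114% of its rows, exact 95% interval 0.00686 to 0.0178) with a median score of 256, and the control list had 0 of 51286, which allows a share of up to 0.00585% by a limit of 3 counts and up to 0.00719% by the exact interval, so the intervals of both lists overlap slightly. On chromosome X the MLL-AF9 list had 819 regions (0.491%, exact interval 0.458 to 0.526) and the control list 141 (0.275%, interval 0.231 to 0.324). Of the X regions of MLL-AF9 cells 437 (53.4%) lay more than 50000 bp from a control region, against 9.61% of autosomal ones. Control regions were few on X, and by the rule fewer control regions leave more sequence far from control. The length of such sequence on X was not computed, so its part in this share was not tested. The sex of the mice is not given in the labels, and its part in these numbers was not tested.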

How the results depend on the processing

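No paired analysis was possible because each group has 1 5hmC library. With the limit at 25000 bp there were 28271 far regions with a median width of 384 bp, a median score of 189, 76.6% in clusters and a ratio of far to other density of 0.0774. With the limit at 100000 bp these values were 7835, 371 bp, 184, 68.2% and 0.0402. With only the upper 50% of the control regions by score as neighbours they were 32462, 389 bp, 191, 80.8% and 0.0918. With as many top-scoring MLL-AF9 regions as control regions they were 2993, 564 bp, 339, 46.2% and 0.0345. The last setting keeps high scores by construction, so its width and score are not comparable with the rest. Gaps from midpoint to midpoint moved none of the 5 results computed with them beyond counting error. Merging rows closer than 1000 bp gave a median width of 393 bp, a median score of 192 and 64.2% in clusters, and left the number within 1.5 times. Cluster spacings of 5000 and 20000 bp gave 60.2% and 82.7% in clusters. The share of chromosome 2 over that of chromosome 10, an alternative chosen after seeing the data, was 1.54 with the limit at 25000 bp, 2.40 at 100000 bp and 1.54 with the upper 50% of the control regions. The number of far regions thus depends on the limit and on the control list. The ratio of far to other density, 0.0590 as reported, depends on them too. It moved beyond counting error in each of the 4 settings in which it was computed, and ranged from 0.0345 to 0.0918 in them. Depth per library is unknown, and no replicate bounds any of these values.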

Other observations

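The authors' scores were not spread evenly. In the autosomal MLL-AF9 list 2613 regions had a score of 96 and 61 had a score of 97. In the control list such an edge lay at a score of 98, held by 482 regions, against 5 regions at 99. Scores up to the edge of their own list were held by 8.97% of the MLL-AF9 regions and 5.30% of the control regions. These shares are at different scores and are not compared. Scores of 96 or lower were held by 12.1% of far regions, against 10.9% of regions over 10000 and up to 50000 bp from control, 10.1% of regions up to 10000 bp from control and 4.38% of overlapping regions. At these scores the median width was 267 bp in far regions, and 281, 297 and 336 bp in these other classes in the same order. What sets this edge in the score is not stated in the sources used here.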
